A study of Mus musculus with 20 samples.

Results

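The 10 genes described here encode cell adhesion molecules of growing axons: the 4 members of the L1 family (L1cam, Nrcam, Chl1 and Nfasc), 5 contactins (Cntn1, Cntn2, Cntn3, Cntn4 and Cntn5) and the neural cell adhesion molecule gene Ncam1. They were chosen by name as a gene family, and all 10 were found among the 55487 genes of the deposited count table. The material was RNA of subcerebral projection neurons, the cortical neurons that send axons out of the forebrain, at day 1 after birth in the mouse. Somata came from cortex, and growth cones, the advancing tips of axons, came from brainstem and spinal cord. Each compartment was taken from wild-type (WT) animals and from animals labelled as null for Bcl11b (labelled KO), a transcription factor gene required for the outgrowth of these axons. The 4 groups had 5 libraries each: WT somata (experiments 12, 14, 22, 25 and 26 in the sample titles), somata labelled KO (experiments 14, 15, 22, 25 and 26), WT growth cones and growth cones labelled KO (both experiments 7, 8, 9, 10 and 11). The labels name no transgene, strain or further treatment for any group. How the neurons were marked and purified, how the Bcl11b allele was made and whether animals were pooled are not given in the sources used here. Nor do the labels say that libraries of a group came from separate animals, so the p-values measure only the spread between these libraries, which may be technical.

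The proteins of this family sit on the axon surface and bind one another within a membrane and between neighbouring membranes. L1 family proteins cross the membrane, carry immunoglobulin and fibronectin type III domains outside the cell, and bind ankyrins, ezrin-radixin-moesin proteins and the endocytic adaptor AP-2 with their short cytoplasmic tails. Contactins have a similar outer part, but are held in the membrane by a lipid (glycosylphosphatidylinositol) anchor and act with transmembrane partners. The Ncam1 protein also belongs to the immunoglobulin superfamily and carries long polysialic acid chains in the young brain. Loss of L1CAM in people and of L1cam in mice damages the corticospinal tract, the main spinal branch of the axons sampled here.

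The members differ widely in size and lie in a few genomic neighbourhoods (coordinates from the deposited table, which match GENCODE M21 on GRCm38). Cntn3 (chr6:102162655-102573101, minus strand), Chl1 (chr6:103510586-103750211, plus strand) and Cntn4 (chr6:105677660-106699310, plus strand) follow each other on chromosome 6. The only protein-coding gene within that stretch is a further contactin, Cntn6, which lies between Chl1 and Cntn4. The gaps are 937.5 kb from Cntn3 to Chl1, 742.6 kb from Chl1 to Cntn6 and 814.3 kb from Cntn6 to Cntn4. Cntn2 (chr1:132509427-132543256, minus strand) and Nfasc (chr1:132564690-132741797, minus strand) are neighbours 21.4 kb apart on chromosome 1. Cntn5 (chr9:9660891-10904775, minus strand) and Ncam1 (chr9:49502136-49798925, minus strand) share chromosome 9 at a distance, with 443 protein-coding genes between them. L1cam (chrX:73853778-73896105, minus strand), Nrcam (chr12:44328885-44601964, plus strand) and Cntn1 (chr15:92051165-92341967, plus strand) stand alone. Merged exons span 4531 bases in Cntn5 and 14145 bases in Nfasc, and gene spans run from 33.8 kb (Cntn2) to 1243.9 kb (Cntn5). Exons of L1cam overlap Arhgap4 by 100 bases on the same strand, exons of Cntn5 overlap Gm32710 by 290 bases on the opposite strand, and exons of Ncam1 overlap Gm11149 by 417 bases on the opposite strand. Whether the counting used strand is not given in the sources used here, so reads from those short stretches cannot be assigned with certainty. The overlapping genes held 305, 727 and 316 counts over the 20 libraries, against 246267 for L1cam, 12322 for Cntn5 and 604939 for Ncam1.

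The windows before RefSeq start sites of the members differ in composition. RefSeq start sites were matched for 9 of the 10 genes, all but Ncam1, and the 250 bases before each start were read (RefSeq, GRCm38.p6). Windows of Nrcam, Cntn1 and Cntn5 lie next to the outermost GENCODE M21 start of the gene. Those of L1cam, Chl1, Nfasc, Cntn2, Cntn3 and Cntn4 lie inside the gene span. The bases before the outermost annotated start of these genes were not read. The Cntn3 window ends at position 102464917, while the minus-strand gene begins at 102573101. For L1cam these positions are 73881084 and 73896105. The windows of L1cam, Nrcam, Cntn1 and Cntn3 are shown because these 4 genes were all lower in growth cones of both genotypes and their windows contain no annotated exon. They read 5′ to 3′ on the strand of the gene, and capitals mark GGGCGG, the GC box bound by Sp1-type factors, on either strand.
L1cam (chrX:73880835-73881084, minus strand): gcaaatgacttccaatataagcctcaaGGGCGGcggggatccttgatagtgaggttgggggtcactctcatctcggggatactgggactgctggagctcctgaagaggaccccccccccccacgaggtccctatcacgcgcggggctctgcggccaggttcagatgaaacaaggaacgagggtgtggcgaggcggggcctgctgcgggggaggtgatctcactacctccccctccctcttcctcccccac
Nrcam (chr12:44328635-44328884, plus strand): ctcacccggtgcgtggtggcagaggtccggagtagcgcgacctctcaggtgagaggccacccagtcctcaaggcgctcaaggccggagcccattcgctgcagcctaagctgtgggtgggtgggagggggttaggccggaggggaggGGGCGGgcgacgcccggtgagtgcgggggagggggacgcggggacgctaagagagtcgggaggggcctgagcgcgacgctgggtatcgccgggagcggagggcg
Cntn1 (chr15:92050915-92051164, plus strand): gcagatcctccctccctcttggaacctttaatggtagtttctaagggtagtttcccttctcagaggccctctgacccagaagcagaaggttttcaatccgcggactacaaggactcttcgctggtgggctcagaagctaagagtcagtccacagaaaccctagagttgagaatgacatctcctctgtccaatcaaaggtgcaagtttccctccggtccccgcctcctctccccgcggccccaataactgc
Cntn3 (chr6:102464668-102464917, minus strand): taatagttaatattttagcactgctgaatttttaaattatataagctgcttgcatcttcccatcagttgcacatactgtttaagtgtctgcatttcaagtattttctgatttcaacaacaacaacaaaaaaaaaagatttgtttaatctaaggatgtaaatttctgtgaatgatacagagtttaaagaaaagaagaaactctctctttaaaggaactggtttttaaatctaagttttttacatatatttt
These windows differ in composition. That of Nrcam holds 25 CpG dinucleotides and is 72.4% G or C, that of L1cam holds 12 (63.2%), that of Cntn1 holds 7 (53.6%), and that of Cntn3 holds 0 and is 26.4% G or C. The median over 32851 windows of the same length was 6 CpG and 52.4% G or C. GGGCGG occurs once each in L1cam, Nrcam and Nfasc among the 9 members read, and in 32.7% of all windows. CCAAT, searched on both strands, occurs in L1cam, Cntn1 and Cntn5, and in 33.8% of all windows. TATAAA (12.4% of all windows) and TGACCA, the core letters recognised by the related factor BCL11A (11.4%), have no match on either strand in the 9 windows. Of these motifs, TGACCA and CCAAT can overlap each other. A match is only a run of letters, and its absence says only that the letters are not in this window.

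The libraries held 18962308 to 51205154 counts. Gene levels are given as CPM, the count of a gene scaled to a library of common size, after TMM scaling, a correction for library composition computed by edgeR. The targeted gene went against the labels: Bcl11b stood at 583, 806, 789, 789 and 537 CPM in the 5 WT somata, in the order of the experiments above, and at 1177, 1143, 1129, 1079.9 and 1232 CPM in the 5 somata labelled KO. It was higher in the somata labelled KO by 0.71 ± 0.12 on the log2 scale (± SE; edgeR quasi-likelihood test, adjusted p = 0.0153), and its growth cone means were 101 ± 19.3 and 102 ± 35.1 CPM (SD, n = 5). The call for somata was lost when all 20 libraries entered 1 fit (adjusted p = 0.279) and with the experiment number as a replicate block (adjusted p = 0.162). The deleted part of the gene is not given in the sources used here, so counts over the whole gene may include exons outside it, and directions below refer to the libraries labelled KO. Summed markers of subcerebral projection neurons (9 of 10 listed genes found) had medians of 1822 CPM of library totals in WT somata, 1809 in somata labelled KO, 841 in WT growth cones and 807 in growth cones labelled KO. Single genes in this sum differed between genotypes in somata in both directions, without overlap. Crym (96.3 to 238 CPM in WT, 18.6 to 56.2 labelled KO) and Pcp4 (26.6 to 58.9, 9.53 to 13.9) were lower labelled KO. Etv1 (49.6 to 127, 208 to 292), Npnt (3.63 to 28.4, 35.9 to 64.2) and Fezf2 (247 to 303, 308 to 375) were higher. Ranges of the other genes found overlapped. Against the sum, Pcp4 had medians of 34.7 CPM in WT somata and 359 in WT growth cones. Most marker sums of other cells were higher in growth cones. Astrocyte genes summed to 21.3 to 230.04 CPM in WT somata and 1589 to 2127 CPM in WT growth cones, and to 102 to 308 CPM and 1553 to 2272 CPM in the libraries labelled KO. Oligodendrocyte lineage, vessel and blood, interneuron, hindbrain and spinal cord, and Schwann and sensory ganglion sums were likewise higher in growth cones of both genotypes, as was the astrocyte sum (differences of 3.21 to 5.79 on the log2(CPM + 1) scale; two-sided exact permutation test, p = 0.00794, the smallest possible, adjusted p = 0.0198 over 40 tests). The microglia sum did not pass (1.31 in WT, p = 0.0714, adjusted p = 0.15; 0.846 labelled KO, p = 0.349, adjusted p = 0.621; exact permutation test). Hoxa3 and Hoxb3 were at 0 in all WT somata, and Hoxa3, Hoxb3, Hoxb4, Hoxb8, Hoxc8 and Slc6a5 in all somata labelled KO, where a count of 0 in a library allows 0.0586 to 0.158 CPM (3 counts). Hoxa3 and Hoxb3 were also low in WT growth cones, with medians of 0.146 and 0.341 CPM (9.28 and 0.659 CPM in growth cones labelled KO). The gene with the highest mean of that list in WT growth cones was Isl1 (41.2 CPM). The share of these other cells in the compartment differences of the adhesion genes was not tested. In such bulk libraries fewer cells of a type and less RNA per cell cannot be told apart, and a CPM value is a share of the library's RNA and not an amount per growth cone.

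By mean level per kilobase of merged exon, the scale used here to compare genes, Ncam1 and L1cam led in every group. In somata labelled KO, L1cam was above Chl1 per kilobase in only 3 of 5 libraries, with overlapping ranges. Without division by length Chl1 was above L1cam there in 5 of 5. Mean levels in WT somata were 184 ± 27.2 CPM per kilobase (SD, n = 5) for Ncam1, 84.1 ± 23.98 for L1cam, 50.3 ± 12.1 for Chl1, 32.97 ± 11.1 for Cntn1 and 31.7 ± 9.54 for Nrcam. The other 5 members were much lower, from 8.83 ± 3.02 for Cntn3, 8.72 ± 2.04 for Cntn2 and 6.86 ± 2.696 for Cntn5 to 3.53 ± 0.611 for Nfasc and 2.15 ± 2.02 for Cntn4. Only 2 steps of this order were wider than the spread of the libraries in WT somata: Ncam1 above L1cam, and Nrcam above Cntn3. In WT growth cones Ncam1 stood at 46.2 ± 3.82 CPM per kilobase, L1cam at 24.6 ± 2.77, Chl1 at 13.8 ± 3.64, Cntn1 at 10.9 ± 3.36, Cntn2 at 5.98 ± 2.36, Nrcam at 5.35 ± 1.71 and Nfasc at 2.71 ± 0.696. Cntn2 thus ranked 5th in WT growth cones, ahead of Nrcam in 3 of 5 libraries, and 7th in WT somata. At the bottom of the order in WT growth cones were Cntn5 at 1.51 ± 1.84, Cntn4 at 1.38 ± 0.616 and Cntn3 at 0.674 ± 0.798, whose ranges overlapped.

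**Figure D1:**
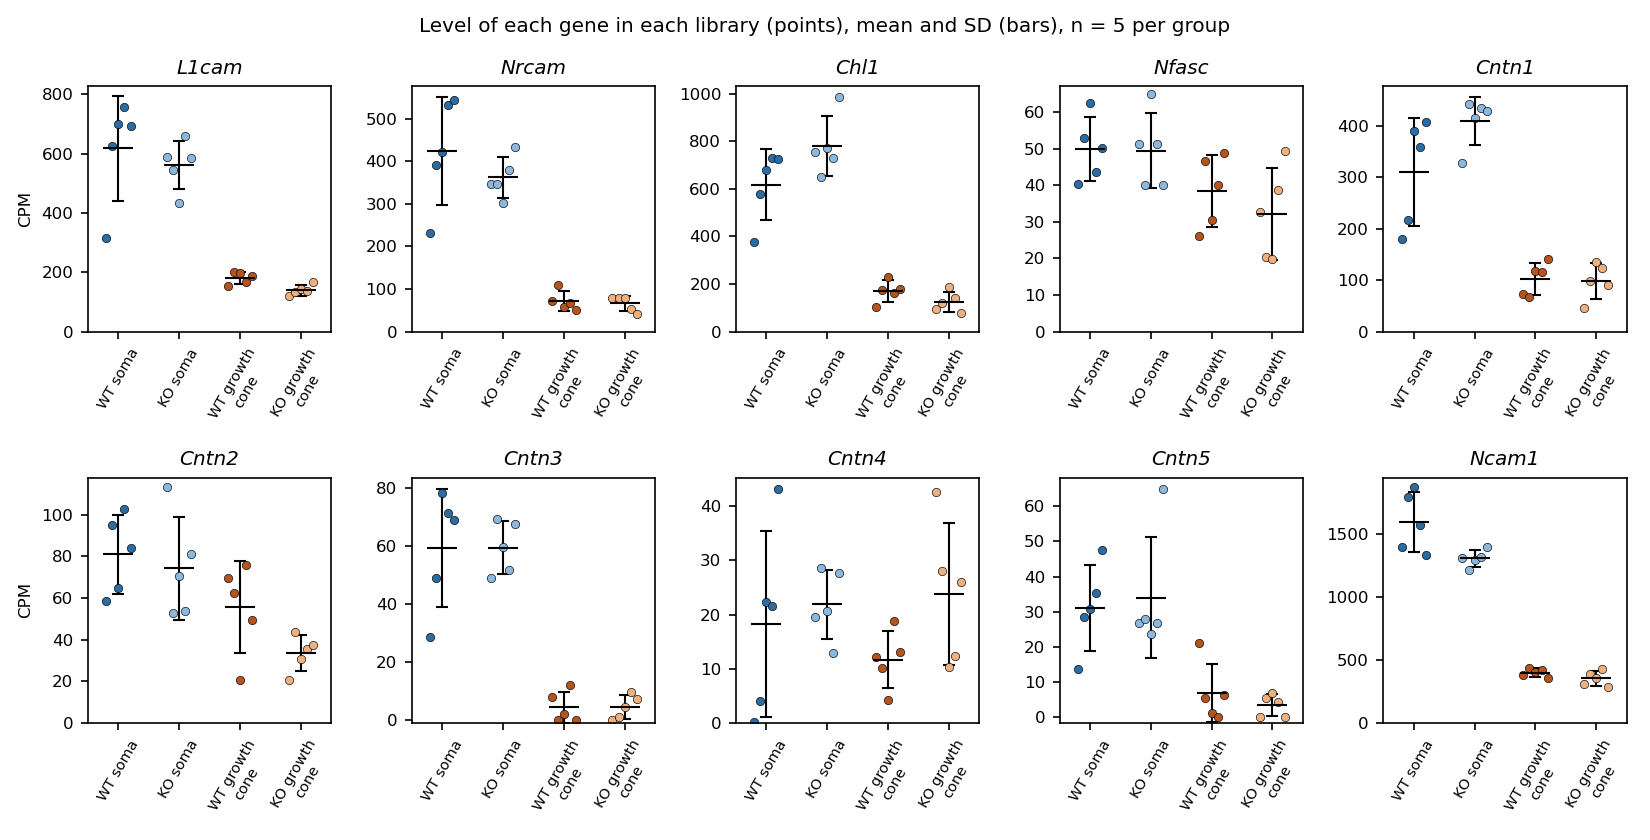
Level of each of the 10 genes in every library, in TMM-scaled CPM (linear axes, a separate scale for each gene), by genotype label and compartment. Points are libraries, horizontal bars the mean and whiskers the SD (n = 5); L1cam, Nrcam, Chl1, Cntn1, Cntn3 and Ncam1 have no growth cone library as high as any soma library of the same genotype, while the groups of Nfasc and Cntn4 overlap.

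Growth cones were compared with somata in WT animals to ask which adhesion messages make up more or less of the RNA at the axon tip. Of the 10 genes, 6 fell and 0 rose (edgeR quasi-likelihood test, Benjamini-Hochberg adjusted p below 0.05), while 42.8% of the 15128 genes tested passed, 19.7% as lower and 23.1% as higher. For these 6 genes the libraries of both groups did not overlap, as for 37.9% of all genes tested, 18.1% in the lower direction. Among libraries labelled KO, 8 fell and 0 rose, against 17.0% and 21.6% of 15410 genes (38.6% in all), and 8 did not overlap, against 36.8% of all genes, 18.9% in the lower direction. The median log2 fold change of the 10 genes was -1.77 in WT and -1.95 in libraries labelled KO, beside 0.07 and 0.11 over all genes tested. The 2 comparisons share no library. Growth cone and soma libraries share no experiment number and came from different regions. Their RNA input ranges also differed (0.19 to 3.1 ng and 1.8 to 3.1 ng). These differences cannot be told apart from that of compartment. Under upper-quartile scaling the median of all genes moved to 0.28 and 0.31, and the counts of 6 and 8 members were the same under each of the 4 scalings tried. The higher astrocyte, oligodendrocyte and other marker sums given above move with the same contrast, and their part in it was not tested.

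Among the L1 family, L1cam, the founding member, which binds itself and Ncam1 and steers corticospinal axons, fell in both genotypes. Its 5 WT somata held 314, 626, 701, 758 and 691 CPM and its 5 WT growth cones 154, 202, 196, 166 and 187 CPM. In libraries labelled KO, the somata held 587, 545, 433, 658 and 584 CPM and the growth cones 118, 132, 144, 136 and 169 CPM. The lowest soma library, WT experiment 12, was still above every growth cone library. L1cam was 3.31-fold lower in WT growth cones (log2 fold change -1.73 ± 0.21 SE, adjusted p = 4.8e-05, edgeR) and 3.804-fold lower in growth cones labelled KO (-1.93 ± 0.14, adjusted p = 2.43e-06). Only 9.88% of the genes tested in WT had a lower fold change than L1cam.

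Nrcam, which partners contactins and serves in semaphorin receptor complexes, had the steepest drop of the L1 family in WT. WT somata held 230.3, 390.3, 420.5, 532 and 545 CPM and WT growth cones 72.5, 109, 58.4, 67.96 and 49.5 CPM. In libraries labelled KO the somata held 346, 346, 302, 380.1 and 434 CPM and the growth cones 79.7, 78.6, 79.2, 52.7 and 41.5 CPM. The highest growth cone library, WT experiment 8, stood below the lowest soma library, WT experiment 12. The fitted drop was 5.74-fold in WT (-2.52 ± 0.27, adjusted p = 1.69e-05, edgeR) and 5.15-fold in libraries labelled KO (-2.37 ± 0.21, adjusted p = 7.12e-06). Only 3.67% of the genes tested in WT had a lower fold change.

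Chl1, the close homologue of L1, which helps to guide cortical and thalamic axons, fell in both genotypes, with the deeper fitted value in libraries labelled KO. Its WT somata held 376, 577, 681, 729.9 and 725 CPM and its WT growth cones 105, 173, 230.2, 162 and 180.2 CPM. The corresponding libraries labelled KO held 756, 648, 774, 731 and 987 CPM (somata) and 95.2, 120.4, 185, 139 and 77.7 CPM (growth cones). No growth cone library reached a soma library. The fold change was -1.82 ± 0.22 in WT (3.52-fold lower, adjusted p = 5.44e-05, edgeR) and -2.58 ± 0.23 in libraries labelled KO (5.97-fold lower, adjusted p = 7.4e-06). The difference between those 2 values, tested as an interaction, did not pass (-0.796 ± 0.32, unadjusted p = 0.0236, adjusted p = 0.587 over 17645 genes).

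Nfasc, whose protein organises the axon initial segment and the node of Ranvier, was the L1 family member that did not pass the test in either genotype. WT somata held 40.2, 52.9, 62.5, 43.7 and 50.1 CPM and WT growth cones 26.2, 46.6, 30.4, 39.9 and 48.7 CPM. In the libraries labelled KO, somata held 51.3, 39.9, 64.9, 51.3 and 39.95 CPM and growth cones 32.6, 20.3, 19.8, 38.6 and 49.4 CPM. The compartments overlapped in both genotypes. Its fold change was -0.33 ± 0.25 in WT (95% interval -0.87 to 0.203, adjusted p = 0.3004, edgeR) and -0.54 ± 0.303 in libraries labelled KO (-1.21 to 0.12, adjusted p = 0.181). Those intervals exclude drops as deep as the fitted values of L1cam, Nrcam and Chl1. As a share of the summed per-kilobase level of the 10 genes, Nfasc made up 0.676 to 0.988% in WT somata and 1.79 to 3.09% in WT growth cones, ranges that did not overlap. Its share was 0.644 to 1.25% in somata labelled KO and 1.34 to 4.04% in growth cones labelled KO.

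**Figure D2:**
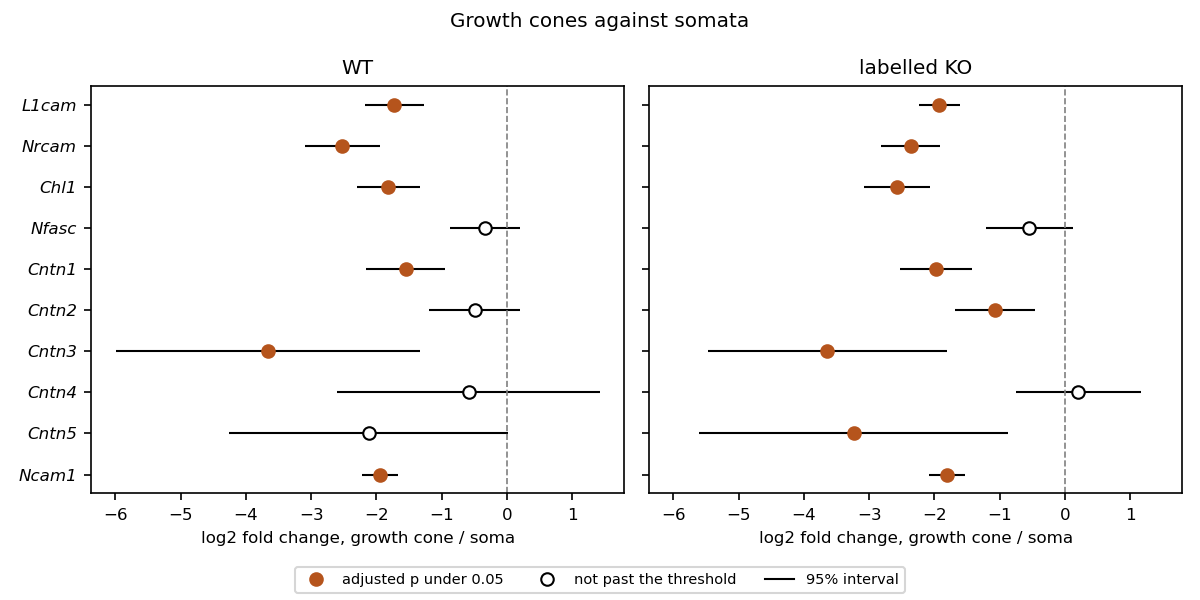
Log2 fold change of growth cones over somata for each gene (points) with its 95% interval (lines), in WT and in libraries labelled KO (n = 5 libraries per group, edgeR). Filled points passed an adjusted p of 0.05; Nfasc and Cntn4 are open in both panels, Cntn2 and Cntn5 in WT only, and the widest intervals belong to Cntn3, Cntn4 and Cntn5.

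Among the contactins, Cntn1, the abundant partner of neurofascin and of receptor phosphatases, fell in both genotypes. WT somata held 179.8, 217, 390.1, 359 and 409 CPM and WT growth cones 72.7, 66.9, 118, 115 and 141 CPM. Somata labelled KO held 328, 443, 416, 435 and 429.6 CPM and growth cones labelled KO 44.9, 97.9, 135, 125 and 91.1 CPM. The WT somata split into a lower pair (experiments 12 and 14) and a higher trio, and both lay above every growth cone library. The fold change was -1.55 ± 0.28 in WT (2.93-fold lower, adjusted p = 0.000805, edgeR) and -1.98 ± 0.25 in libraries labelled KO (3.94-fold lower, adjusted p = 9.94e-05).

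Cntn2 encodes TAG-1, an axonal contactin of early-growing tracts that binds L1cam and Nrcam. WT somata held 58.8, 94.96, 64.9, 103 and 84.1 CPM and WT growth cones 69.5, 62.6, 20.6, 76 and 49.5 CPM. In libraries labelled KO, somata held 113, 53, 70.6, 53.6 and 81.1 CPM and growth cones 20.6, 43.7, 30.5, 35.4 and 37.4 CPM. The WT groups overlapped, with growth cone experiment 9 far below the other 4, and the groups labelled KO did not overlap. Cntn2 fell in libraries labelled KO (-1.07 ± 0.28, 2.1-fold lower, adjusted p = 0.0103, edgeR), and its WT value was -0.497 ± 0.32 (95% interval -1.19 to 0.197, adjusted p = 0.232). The 2 values were not shown to differ (interaction -0.603 ± 0.43, adjusted p = 0.958). Cntn2 made up 2.13 ± 0.389% of the summed per-kilobase level in WT somata and 5.31 ± 2.14% in WT growth cones (SD, n = 5).

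Cntn3, a contactin of postnatal forebrain neurons, had the deepest fitted drop of the 10 genes in both genotypes. Its WT somata held 28.9, 49.1, 78.5, 71.6 and 69.1 CPM, and its WT growth cones 8.07, 0.0365, 2.24, 12.2 and 0.1599 CPM. With the KO label, somata held 48.97, 69.6, 59.8, 51.8 and 67.7 CPM and growth cones 0.08305, 1.16, 4.51, 9.75 and 7.25 CPM. Growth cone libraries ranged from near nothing, 1 count in WT experiment 8 and 2 counts in experiment 7 labelled KO, to 366 counts in WT experiment 10. The drop was 12.7-fold in WT (-3.66 ± 1.07, adjusted p = 0.0157, edgeR) and 12.5-fold in libraries labelled KO (-3.64 ± 0.84, adjusted p = 0.00483). Leaving out 1 library moved the WT log2 fold change between -4.41 (without WT growth cone experiment 10) and -3.33, with adjusted p up to 0.0375 (edgeR).

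Cntn5, a contactin of selected sensory and cortical circuits, was similarly uneven at the axon tip. WT somata held 13.6, 28.5, 30.7, 35.2 and 47.5 CPM and WT growth cones 20.98, 5.54, 1.32, 0.0332 and 6.397 CPM. Somata labelled KO held 26.8, 27.9, 23.7, 26.9 and 64.8 CPM and growth cones labelled KO 0.208, 5.54, 6.898, 4.36 and 0 CPM, where the count of 0 in experiment 11 allows 0.135 CPM (3 counts). WT growth cone experiment 7 overlapped the WT somata, and the groups labelled KO did not overlap. In WT the value was -2.12 ± 0.98 (95% interval -4.26 to 0.01, adjusted p = 0.1004, edgeR), which passed by DESeq2 (adjusted p = 0.0453) and without WT growth cone experiment 7 (-3.15, adjusted p = 0.0263). In libraries labelled KO Cntn5 fell (-3.24 ± 1.08, 9.44-fold lower, adjusted p = 0.0335, edgeR). That call was lost on leaving out soma experiment 14, 15, 25 or 26 or growth cone experiment 10 labelled KO (adjusted p up to 0.0854).

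Cntn4, a contactin of olfactory and optic axons, was the only contactin that did not pass in either genotype. WT somata held 0.157, 4.08, 22.2, 21.6 and 43.1 CPM, and WT growth cones 12.2, 10.1, 4.32, 18.8 and 13.02 CPM. Somata labelled KO held 19.6, 28.5, 20.6, 12.9 and 27.7 CPM, and growth cones labelled KO 42.6, 27.97, 10.4, 12.3 and 25.95 CPM. The WT somata spread from 5 counts in experiment 12 to 751 counts in experiment 26, and all 4 groups overlapped. The value was -0.59 ± 0.92 in WT (95% interval -2.601 to 1.42, adjusted p = 0.642, edgeR) and 0.21 ± 0.44 in libraries labelled KO (-0.75 to 1.16, adjusted p = 0.744). The WT interval includes the fitted WT drops of L1cam, Nrcam, Chl1, Cntn1 and Ncam1. The interval labelled KO excludes the drops of those genes in libraries labelled KO. Its share of the summed per-kilobase level was 0.66 ± 0.196% in somata and 3.13 ± 2.05% in growth cones labelled KO (SD, n = 5).

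Ncam1, the most abundant of the 10 genes, had the narrowest interval in this contrast in both genotypes. WT somata held 1399, 1793, 1867, 1573 and 1330.1 CPM and WT growth cones 381, 439.6, 404, 421 and 355 CPM. Libraries labelled KO held 1309, 1211, 1289, 1319 and 1397 CPM (somata) and 313, 391, 356, 428 and 284 CPM (growth cones). Every growth cone library was below every soma library. The fold change was -1.95 ± 0.13 in WT (3.86-fold lower, adjusted p = 5.92e-07, edgeR) and -1.803 ± 0.12 in libraries labelled KO (3.49-fold lower, adjusted p = 1.4e-06). The shares of the abundant members in the summed per-kilobase level of the 10 genes were alike in somata and growth cones of WT, within the spread of the libraries. Ncam1 made up 45.3 ± 8.005% in somata and 40.8 ± 2.36% in growth cones, L1cam 19.98 ± 3.03% and 21.7 ± 1.79%, and Chl1 12.1 ± 1.28% and 12.2 ± 2.95% (SD, n = 5). The share of Nrcam was 7.57 ± 1.47% in somata and 4.71 ± 1.37% in growth cones. In libraries labelled KO the share of Chl1 was lower in growth cones, 16.1 ± 1.65% in somata and 10.4 ± 2.60% in growth cones. Its ranges there overlapped narrowly (14.3 to 18.3% and 7.31 to 14.5%). Ncam1 made up 38.5 ± 1.47% and 42.8 ± 3.77% in those 2 groups, and L1cam 19.5 ± 2.43% and 20.1 ± 3.70%.

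**Figure D3:**
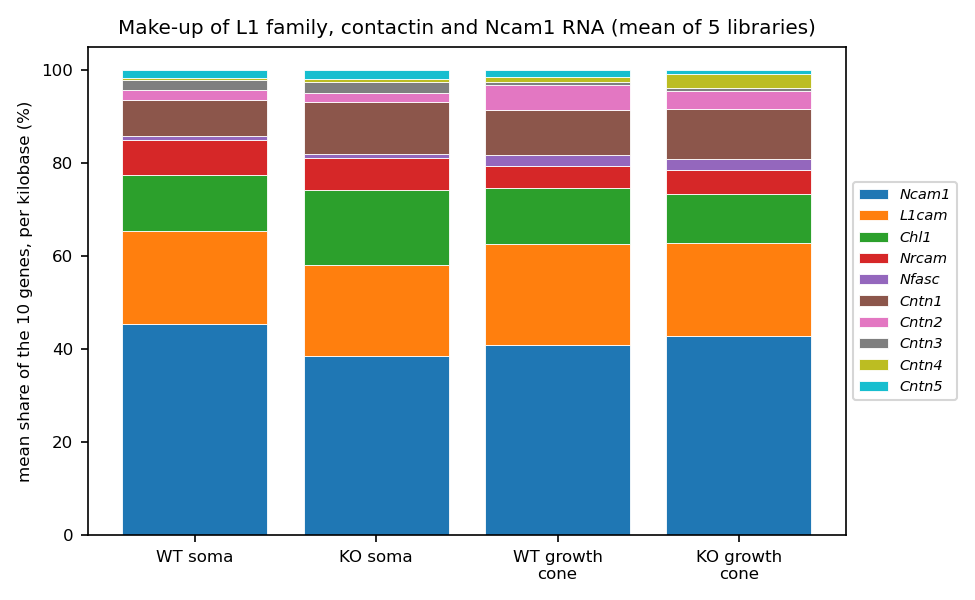
Mean share of each gene in the summed per-kilobase level of the 10 genes, in percent, by genotype label and compartment (bars, mean of 5 libraries, stacked to 100%). Ncam1, L1cam and Chl1 make up most of every bar, and the bands of Nfasc and Cntn2 are wider in growth cones than in somata of the same genotype.

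Libraries labelled KO were then compared with WT within each compartment, to ask whether the levels of these genes differed with the Bcl11b label. In somata 0 of the 10 genes passed (edgeR), beside 0.731% of 14911 genes tested, and 1 member had an unadjusted p below 0.05, as did 8.57% of all genes. By DESeq2 0 members passed as well. In growth cones 0 members passed, beside 0 of 15419 genes; 329 genes (2.13%) had an unadjusted p below 0.05, 1 of them a member, and DESeq2 called 11 genes and 0 members. All 10 genes overlapped between genotypes in both compartments, whereas 3.17% of all genes tested in somata and 0.532% in growth cones did not. The median log2 fold change of the members was -0.01 in somata and -0.20 in growth cones, beside -0.00 and 0.01 over all genes.

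In somata the smallest p belonged to Ncam1. Its mean was 1305 ± 66.6 CPM in somata labelled KO and 1592 ± 236 CPM in their WT counterparts (SD, n = 5), a log2 difference of -0.29 ± 0.098 (95% interval -0.51 to -0.08, unadjusted p = 0.0119, adjusted p = 0.331, edgeR). The 4 highest libraries were WT, and the lowest WT library, experiment 26, lay inside the range of the group labelled KO. Chl1 and Cntn1 had the largest positive values, 0.33 ± 0.17 and 0.398 ± 0.21 (adjusted p = 0.673 and 0.697). In ratio terms the 95% interval of labelled KO over WT was 0.972 to 1.63 for Chl1 and 0.9596 to 1.81 for Cntn1, so neither a small decrease nor a rise above 1.5-fold is excluded. For L1cam the interval was 0.6703 to 1.23, for Nrcam 0.634 to 1.15 and for Nfasc 0.7598 to 1.29. The intervals of Cntn2, 0.647 to 1.29, and Cntn3, 0.699 to 1.43, were of like width. Cntn5, with 0.646 to 1.85, and Cntn4, with 0.344 to 4.21, were measured less precisely. WT soma experiment 12 was the lowest WT soma library for 9 of the 10 genes, all but Ncam1. Somata labelled KO also held more counts per library (0.46 on the log2 scale, exact permutation test, p = 0.0159, adjusted p = 0.0373) and a higher sum of excitatory cortical neuron markers (0.34, p = 0.00794, adjusted p = 0.0198), and the part of these in the values above was not tested.

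In growth cones the smallest p belonged to L1cam. The means were 181 ± 20.4 CPM in WT and 139.8 ± 18.7 CPM in growth cones labelled KO (SD, n = 5), a difference of -0.35 ± 0.15 (95% interval -0.68 to -0.03, unadjusted p = 0.0365, adjusted p = 0.999, edgeR). Of the 5 growth cone libraries labelled KO, 4 were below every WT library, and experiment 11 lay within the WT range. Cntn2 stood at -0.71 ± 0.37 and Cntn4 at 1.02 ± 0.55, both with intervals that included 0 (-1.52 to 0.09 and -0.18 to 2.22). The ratio of labelled KO to WT had 95% intervals of 0.711 to 1.14 for Ncam1, 0.629 to 1.41 for Nrcam, 0.494 to 1.097 for Chl1, 0.502 to 1.43 for Nfasc and 0.6002 to 1.58 for Cntn1. For Cntn3 and Cntn5 the intervals of 0.121 to 8.36 and 0.0522 to 4.95 leave little that could have been detected at these counts. The interaction, which asks whether the genotype difference differs between compartments, called 0 members beside 0.0397% of 17645 genes (edgeR), with 1 member, Chl1, at an unadjusted p below 0.05, as were 6.98% of all genes; DESeq2 called 273 genes and 0 members.

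**Figure D4:**
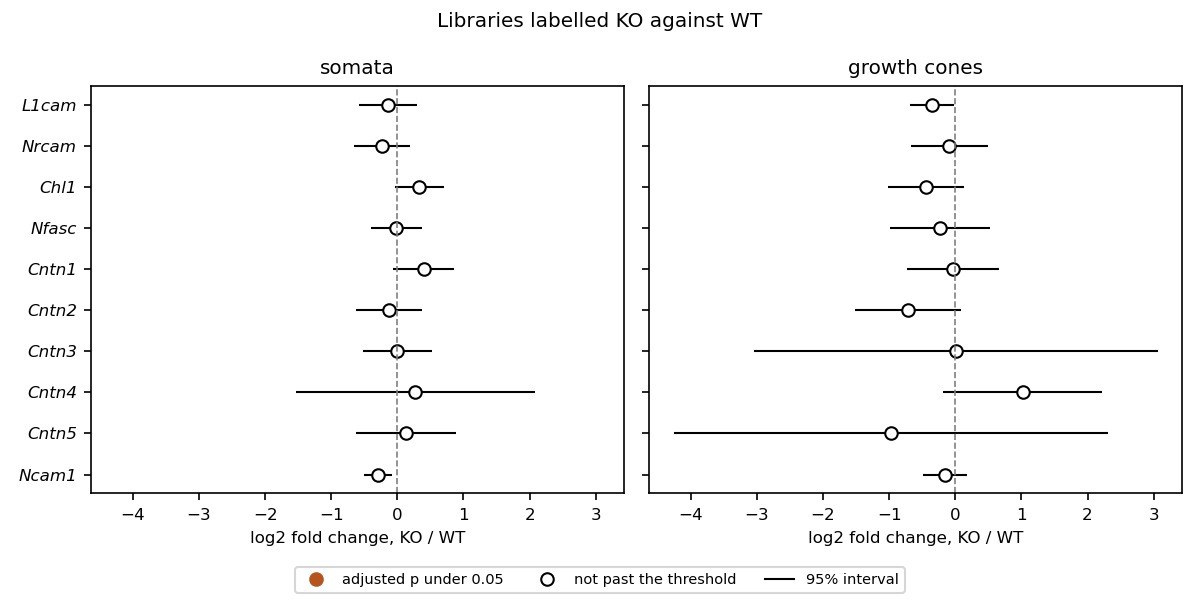
Log2 fold change of libraries labelled KO over WT for each gene (points) with its 95% interval (lines), in somata and in growth cones (n = 5 libraries per group, edgeR). Every point is open, since 0 of 10 genes passed an adjusted p of 0.05; intervals are narrowest for Ncam1 in somata and widest for Cntn3 and Cntn5 in growth cones.

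The genes around this family were read from 4 lists with 69 genes in all, none of them a member. Among 20 other immunoglobulin adhesion genes, 3 rose and 8 fell of 19 tested in WT growth cones, and 4 rose and 10 fell of 20 tested in libraries labelled KO (edgeR), with medians of -0.72 and -0.73. Over all genes tested, 23.1% rose and 19.7% fell in WT, and 21.6% and 17.0% in libraries labelled KO. Cadm1, a synaptic adhesion gene, averaged 533 ± 90.6 CPM in WT somata, fell to 131 ± 25.8 CPM in WT growth cones (SD, n = 5; -1.98 ± 0.17) and also fell in libraries labelled KO (-2.72). Kirrel3, a partner-matching gene of developing circuits (-1.77 ± 0.28 in WT, -1.94 ± 0.43 labelled KO), and Ntm, a lipid-anchored adhesion gene (-0.95 ± 0.16 in WT, -1.31 ± 0.14 labelled KO), also fell, as did its relative Lsamp (-1.46 ± 0.19 labelled KO, -0.72 ± 0.24 in WT). The WT call of Lsamp was lost under upper-quartile scaling, by library totals, and without WT soma experiment 22, 25 or 26 or WT growth cone experiment 7, 8 or 10 (adjusted p up to 0.0972). Among the genes that rose, Nectin1, an adherens junction gene, stood at 2.17 ± 0.546 CPM in WT somata and 23.8 ± 13.6 CPM in WT growth cones (3.49 ± 0.51; 3.38 ± 0.64 labelled KO), and Thy1, a surface glycoprotein gene, at 3.22 ± 0.5001 and 27.4 ± 7.798 CPM in the libraries labelled KO (3.17 ± 0.39; 2.26 ± 0.399 in WT). Adjusted p-values of these named genes ran from 1.81e-07 to 0.0275 (edgeR).

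The cytoplasmic linkers join the tails of these proteins to the cytoskeleton and to endocytosis. Of 19 such genes, 1 rose and 8 fell in WT, and 1 rose and 10 fell in libraries labelled KO, with medians of -0.66 and -0.80. The shares over all genes were 23.1% higher and 19.7% lower in WT, and 21.6% and 17.0% labelled KO. Ap2m1, the AP-2 subunit that reads the sorting signal in the L1cam tail, fell from 1173 ± 74.3 to 514 ± 34.8 CPM in WT (-1.14 ± 0.103) and from 1281 ± 47.8 to 541 ± 57.7 CPM in libraries labelled KO (-1.16 ± 0.103). Its partner subunit gene Ap2a1 also fell (-1.78 ± 0.19 in WT and -1.73 ± 0.25 labelled KO). Dcx, a microtubule-binding protein gene of young neurons whose product binds neurofascin, fell as well (-1.15 ± 0.18 in WT, -1.53 ± 0.14 labelled KO). So did Cttn, the cortactin gene (-1.57 ± 0.22 and -1.13 ± 0.22), and Ank2, an ankyrin gene (-1.35 ± 0.25 and -1.41 ± 0.21). The highest adjusted p among these named linkers was 0.00175 (edgeR).

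Of 12 enzymes that cut or decorate these proteins, 1 rose and 5 fell in each genotype, with medians of -0.81 and -0.63. The shares over all genes were 23.1% higher and 19.7% lower in WT, and 21.6% and 17.0% labelled KO. St8sia2, which builds polysialic acid on Ncam1, fell from 404 ± 84.1 to 98.1 ± 16.3 CPM in WT (-1.996 ± 0.19) and by a like amount in libraries labelled KO (-1.86 ± 0.201). Chst10, the sulfotransferase of the HNK-1 carbohydrate, fell too (-1.52 ± 0.14 and -1.25 ± 0.19). The 2 named parts of gamma-secretase went opposite ways: Ncstn fell (-2.02 ± 0.23 and -2.09 ± 0.25), and Psenen rose from 31.2 ± 6.94 to 78.9 ± 8.21 CPM in WT (1.38 ± 0.21) and in libraries labelled KO (1.399 ± 0.25; adjusted p = 0.000927, the highest of this set, edgeR).

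Of 18 membrane and matrix partners, 17 were tested in each genotype, and 3 rose and 6 fell in WT and 3 rose and 7 fell in libraries labelled KO, with medians of -0.24 and -0.64. The shares over all genes were 23.1% higher and 19.7% lower in WT, and 21.6% and 17.0% labelled KO. Aplp1, an amyloid precursor-like protein gene, fell from 1932 ± 372 to 539 ± 81.4 CPM in WT (-1.798 ± 0.16) and also fell in libraries labelled KO (-1.83). Prnp, the prion protein gene (-1.48 ± 0.17 and -1.68 ± 0.17), and Ncan, the neurocan gene, whose product binds L1cam and Ncam1 (-1.74 ± 0.18 and -1.74 ± 0.18), fell in both genotypes, as did App (-0.77 ± 0.18 and -0.86 ± 0.13). Fgfr1, a growth factor receptor gene through which L1cam and Ncam1 signal, rose in WT from 3.67 ± 1.63 to 34.1 ± 10.3 CPM (3.25 ± 0.44, adjusted p = 0.000109, edgeR). In libraries labelled KO it rose from 7.42 ± 2.69 to 19.4 ± 7.74 CPM (1.47 ± 0.47, adjusted p = 0.0271, edgeR), with overlapping groups. The smaller value was not shown to differ from WT (interaction -1.82 ± 0.57, adjusted p = 0.422, edgeR). The rise labelled KO did not pass without the low-count filter or without soma experiment 14, 25 or 26 or growth cone experiment 8 labelled KO (adjusted p up to 0.0733). The growth cone libraries also held the higher astrocyte and oligodendrocyte sums given above, whose part in these list values was not tested.

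**Figure D5:**
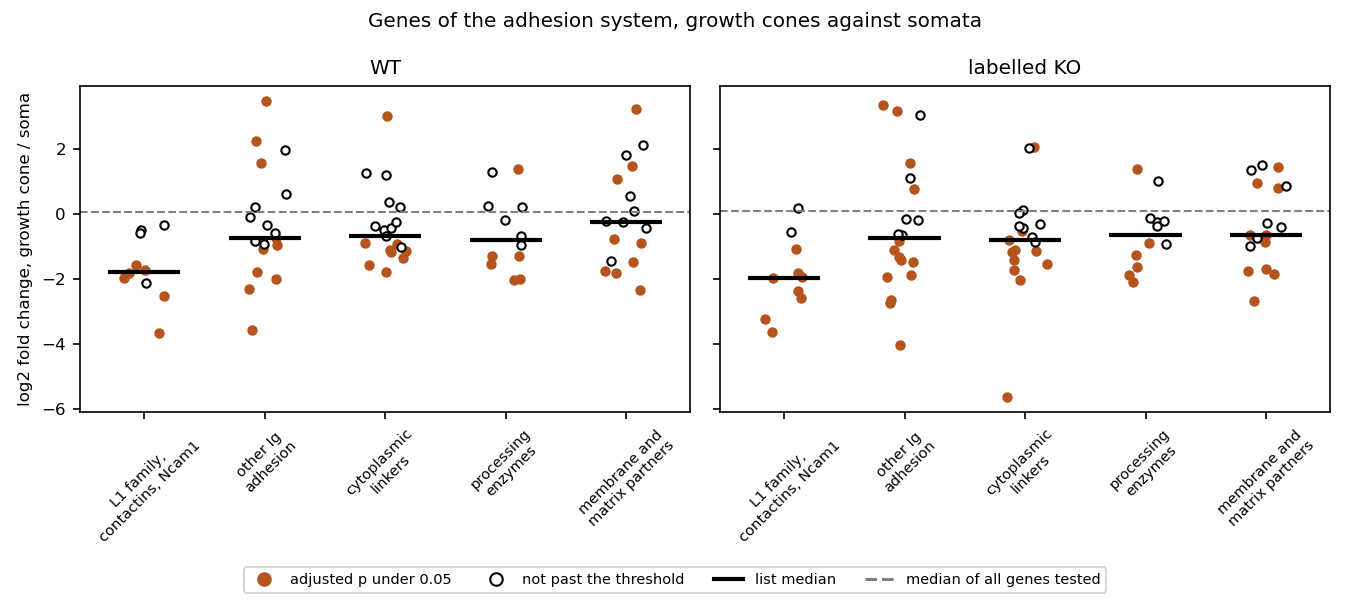
Log2 fold change of growth cones over somata for the 10 genes and the 4 lists around them (points are genes; n = 5 libraries per group, edgeR), in WT and in libraries labelled KO. Filled points passed an adjusted p of 0.05, thick bars are list medians and the dashed line the median of all genes tested; the medians are -1.77 and -1.95 for the 10 genes and between -0.81 and -0.24 for the other lists.

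Between genotypes, 2 of the listed genes tested passed in somata, beside 0.731% of 14911 genes (edgeR). In growth cones 0 passed, beside 0 of 15419 genes. In somata 19 of the 20 other immunoglobulin adhesion genes and 17 of the 18 partners were tested, and the other 2 lists in full. Ntm rose in somata labelled KO (552 ± 37.5 against 406 ± 44.3 CPM in WT, 0.44 ± 0.09, adjusted p = 0.0478, edgeR). That call was lost when any of 9 of the 10 libraries was left out, all but WT experiment 26, and under 5 other settings, the experiment number as a block among them (adjusted p up to 0.542). Fyn, a kinase gene downstream of contactins and Ncam1, fell (431 ± 15.1 against 601 ± 40.8 CPM, -0.49 ± 0.07, adjusted p = 0.00721, edgeR), and did not pass with all 20 libraries in 1 fit (adjusted p = 0.418) or with the experiment number as a replicate block (adjusted p = 0.06895). Cntn6, the contactin between Chl1 and Cntn4, is named after its values were seen. It had WT growth cone levels of 16.2, 0.292, 4.12, 46.3 and 27.7 CPM against 144, 140.2, 264, 279.8 and 328 CPM in WT somata, and fell by -3.56 ± 0.87 in WT and -4.03 ± 0.67 in libraries labelled KO (adjusted p = 0.00583 and 0.000598, edgeR).

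As a description across the 20 libraries, which fall into 2 compartments and so give high correlations to any gene that differs between them, the members' patterns were set beside each other and beside the 11342 genes that averaged 5 CPM or more. Pearson's r of log2(CPM + 1) was 0.96 between Ncam1 and Nrcam, 0.95 between L1cam and Nrcam and 0.95 between Chl1 and L1cam. Nfasc was less like the rest of its family, at 0.65 with L1cam, 0.56 with Chl1 and 0.51 with Nrcam. Cntn4 was unlike all, at 0.02 with Chl1, 0.05 with Cntn3 and -0.09 with Ncam1. The closest gene to L1cam was Atp9a (r = 0.98), to Chl1 Lin7c (0.98), to Cntn1 Atp6v0a1 (0.96), to Cntn3 Narf (0.96) and to Cntn5 Tmem181a (0.92). Ncam1 and Nrcam were closest to Pcdha9 (0.99) and Pcdha12 (0.98), clustered protocadherin genes whose shared exons make their own counts uncertain. The closest gene was less like Cntn2 (Nup160, 0.88), Nfasc (Dcun1d4, 0.86) and Cntn4 (Nedd9, 0.76).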

How the data were processed

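The authors deposited 1 table of raw read counts per gene for 20 libraries, with exon coordinates and lengths, in the layout of featureCounts per the file headers. Per the labels' protocols, 1.8 to 3.1 ng of RNA from somata or 0.19 to 3.1 ng from growth cones was made into cDNA with SMART-seq v4 and into libraries with Nextera XT. Trimmomatic 0.39, STAR 2.7.1a, featureCounts 1.5.0 and GRCm39 are named in the submitters' processing notes, but the exon coordinates in the table are those of GENCODE M21 on GRCm38 for 54435 of 55487 genes (98.1%), and symbols were taken from it for 55227. Strand use and the handling of multi-mapping reads are not given in the sources used here.

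Counts were fitted with edgeR 4.0.16 (R 4.3.3; quasi-likelihood test, TMM scaling, filterByExpr with a minimum count of 10, Benjamini-Hochberg adjustment over all genes tested, threshold 0.05), with the 2 groups compared in the fit, or all 20 libraries for the interaction. Folds and 95% intervals come from those fits. Levels are CPM on TMM-scaled totals, marker sums CPM on plain totals, and per-kilobase levels use the deposited exon length. Single values were compared by exact permutation of log2(CPM + 1) over 252 regroupings. The fitting script was tested on simulated counts. Alternatives were 3 other scalings, no filter, DESeq2 1.42.0, all libraries in 1 fit, the experiment number as a block, and leaving out each library. Within each group no library pair agreed within sampling noise. All 10 members passed the low-count filter in every comparison. Of each list, up to 4 genes per comparison with the lowest p below the threshold are named, with their values in both genotypes, and for each member the gene with the highest r. The members, lists and rules were chosen with earlier results of these data known. Depth limits low genes most, and intervals and floors cover counting error only where they rest on single libraries.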

Additional observations from a re-analysis of the deposited data

Results flagged for a closer look

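Each member's 5 CPM values were examined in each of the 4 groups, 40 sets in all, for a library far from the other 4, which chance gives in about 1 of 20 sets. In 2 sets a library stood apart, both among somata labelled KO. Cntn5 stood at 64.8 CPM in experiment 26, while the other 4 libraries lay between 23.7 and 27.9 CPM, a gap of 0.897 of the whole range. Cntn1 stood at 328 CPM in experiment 14, while the others lay between 416 and 443 CPM, a gap of 0.767 of the range. The critical value for 5 libraries is 0.71.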

How the results depend on the processing

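Under every scaling, filter and test tried, 6 members fell in WT growth cones, except that DESeq2 also called Cntn5, and 8 fell in libraries labelled KO; leaving out 1 library gave 6 to 7 and 7 to 8. No setting called a member between genotypes or in the interaction. Counts over all genes moved more. Somata gave 402 genes by DESeq2, 30 with all 20 libraries in 1 fit, 34 with the replicate block and 67 to 107 without 1 library (68 without WT experiment 22, 67 without experiment 22 labelled KO), against 109. Growth cones gave 11 by DESeq2, 7 with all libraries and 0 to 0 without 1 library, against 0. The interaction gave 273 by DESeq2, 0 with the block and 5 to 12 without 1 library, against 7. The cause was not tested. Same-numbered libraries correlated at 0.031 to 0.114 in growth cones and 0.023 to 0.148 in somata, not all above 0.1, so the number was not taken as a pairing, although 10 of 10 growth cone and 5 of 8 soma libraries correlated best with their own number. Values near 0 changed sign without passing any test. In somata, Nfasc was 0.0004 by library totals, and Cntn3 and Cntn5 were -0.22 and -0.10 with the block. In growth cones, Cntn3 was -0.0008 with DESeq2 size factors and by DESeq2, -0.0304 by upper quartile and -0.0108 by library totals, and Bcl11b was -0.0161 with the block. In the interaction, Cntn3 was -0.0355 by upper quartile and -0.0278 by library totals. Without 1 library, values ran from -0.16 to 0.35 for Cntn4 (growth cone against soma, labelled KO). Between genotypes they ran in growth cones from -0.11 to 0.15 for Bcl11b, -0.17 to 0.15 for Cntn1, -0.52 to 0.82 for Cntn3, -1.37 to 0.0931 for Cntn5 and -0.19 to 0.085 for Nrcam, in somata from -0.17 to 0.12 for Cntn3, -0.0528 to 0.86 for Cntn4, -0.24 to 0.33 for Cntn5 and -0.13 to 0.0785 for Nfasc, and in the interaction from -0.53 to 0.81 for Cntn3. Without division by length, 4 to 6 of the 10 ranks within a group moved.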
